A study of Mus musculus with 7 samples.

Results

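The lung epithelium just before birth was set against every other stage of a mouse time course, to find transcripts whose level at embryonic day 18.5 (E18.5) lay outside the range seen earlier and later. Of 21121 genes listed, 1700 had both E18.5 values above all 5 other libraries on the log2(value + 1) scale, and 1355 had both below. After a filter on low read counts 12964 genes were tested, 1323 of them above (10.2% of those tested) and 1237 below (9.54%), while 377 genes above and 118 below were not tested. A gene detected only at E18.5 could pass the filter through those libraries alone, so the counts among tested genes describe the tested set and not all genes in the position.

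Lung cells of C57BL/6 mice were sorted as living (propidium iodide-negative), Epcam-positive cells that lacked CD31, CD45, Ter119 and CD146, surface proteins of vessel and blood cells. RNA was measured by 3' SAGE-seq on an Ion Proton, in which a transcript is counted by tags from its 3' part. The 7 libraries span 5 stages. E18.5 and postnatal day 56 (P56) have 2 libraries each, while E13.5 and E15.5, called early here, and postnatal day 14 (P14) have 1, whose spread the test takes from the replicated stages. The labels leave unsaid if libraries of the same stage are from separate animals or litters, so p-values measure only the spread between these samples, which may be technical.

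In the days before birth the mouse lung is in its saccular phase. The tips of the branched airways, which until then hold dividing progenitor cells, widen into thin-walled sacs, and their cells take on the features of alveolar type 1 cells, the flat cells of gas exchange, or type 2 cells, the cuboidal cells that make surfactant. Fetal lung fluid is secreted until birth and then absorbed through sodium channels. Glucocorticoid hormone rises late in gestation and is known to promote this maturation.

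Values are scaled tag counts, that is tag counts divided by 1 factor per library, in which 1 read was worth 0.236 to 0.385 units. Depth was 2559927 to 3895740 reads per library, and 2617913 and 2808678 at E18.5. The E18.5 libraries differed from each other by more than counting noise, with a chi-square per degree of freedom of 6.79 over genes, against 5.42 for the P56 pair and up to 114 for libraries of different stages. Markers of other cell types were low but not all at 0 at E18.5. The 14 mesenchymal markers summed to 315 and 337 units, between 2683 at E13.5, most of it Vim, and 98.8 in P56 replicate 2. Immune markers summed to 2.70 and 21.9, inside or below the 17.7 to 24.2 of the other libraries. Erythroid markers summed to 0 and 49.0, against 4.73 to 42.1 in the others, and endothelial markers to 98.2 and 115, against 41.4 to 247. Among genes that define the labelled cells, the lung epithelium was marked by Nkx2-1, a transcription factor, at 1459 and 1969 units, and Cdh1, which encodes E-cadherin, at 255 and 286.

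E18.5 was then compared with the mean of the 4 other stages, all stages weighing the same, by limma on log2(value + 1) with Benjamini-Hochberg adjustment. At an adjusted p under 0.05, 1098 tested genes were called higher at E18.5 (8.47%) and 959 lower (7.40%). Genes that met both the position and the call numbered 688 above (5.31%) and 583 below (4.50%). Position and call rest on the same values, so the call adds no independent evidence for the position. A further 410 genes were called higher and 376 lower without lying outside all other libraries, and 635 above and 654 below were not called. The split of the calls depended on the test: 53.4% of limma calls were in the higher direction, against 66.9% with edgeR on the recovered reads (1584 higher, 782 lower) and 33.1% with limma and no filter (721 higher, 1455 lower).

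Most gaps were small. Among the 688 genes above, the median distance from the lower E18.5 library to the highest other library was 0.53 on the log2 scale (quartiles 0.26 and 0.90), and 137 genes had a gap of at least 1. Among the 583 below the median gap was 0.44 (quartiles 0.25 and 0.72), with 71 of at least 1. At the edge of the position stood Brwd1, just above with E18.5 values of 74.7 and 76.5 beside 74.7 at E13.5, and Cdip1, just outside with 494 and 588 beside 494 at P14. On the low side Gpn1, at 47.0 and 107 beside 107 in P56 replicate 1, was just inside, and Cdc37, at 626 and 584 beside 625.5 and 625.4 at P56, just outside.

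Among called genes with an E18.5 mean of at least 50, the largest gap above all other libraries belonged to Msln, which encodes mesothelin, a surface protein best known from the mesothelium that lines the chest cavity (chromosome 17, 25748613 to 25754378 on GRCm38, GENCODE vM21). Msln stood at 0 and 20.5 early, 549 and 733 at E18.5, then 11.8 at P14, and 3.70 and 1.30 at P56. Both E18.5 libraries lay far above every other one, with a mean 31.3-fold over the nearest stage, E15.5, and a difference from the other stages of 6.86 on the log2 scale (SE 0.34, adjusted p = 0.000139). Other mesothelial markers did not share this pattern: Wt1, Lrrn4, Upk3b, Aldh1a2 and Gpm6a had 0 reads in both E18.5 libraries, 5 of 9 listed markers, while Krt19, which many epithelial cells also express, was above. Below, early values are given in the order E13.5, E15.5.

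The next genes by gap included a receptor, a proton pump subunit and a secreted binding protein. Gipr, the receptor for the gut hormone GIP, was at 3.78 and 37.3 early, 329 and 296 at E18.5, then 7.70 at P14, and 14.8 and 11.3 at P56. Its E18.5 mean was 8.37-fold over E15.5, and every other library was far lower. Atp6v0a4, a subunit of the proton pump that acidifies compartments and urine, was listed at 0 and 226 early, and was at 1128 and 943 at E18.5, then 61.1 at P14, and 42.1 and 32.7 at P56. That gene peaked 4.58-fold over E15.5 and was lower again in every library after birth. Igfbp6, a secreted protein that binds insulin-like growth factors with a preference for IGF-II, was at 0.473 and 264 early, 4114 and 5289 at E18.5, then 625 at P14, and 1010.5 and 906 at P56. Its E18.5 mean of 4701 ± 831 (SD, n = 2) was 4.91-fold over P56 (log2 difference from the other stages 5.24, SE 0.17, adjusted p = 3.35e-05). The 8 remaining genes were Nbeal2, Ncf1 (a subunit of the phagocyte NADPH oxidase), Tecrl, Cela1 (an elastase-like protease), Sphk1 (the kinase that makes sphingosine 1-phosphate), Rnf150, Zbtb8b and Col6a2 (a collagen VI chain). Their E18.5 means were 4.22-fold (Col6a2) to 7.50-fold (Ncf1) over the nearest stage, and none of their E18.5 values exceeded 276 units. Ncf1, also a gene of immune cells, was at 79.3 and 74.6 beside at most 10.8. The immune marker sums given above were 2.70 and 21.9 at E18.5 and 17.7 to 24.2 elsewhere. The source of the Ncf1 RNA was not tested.

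**Figure D1:**
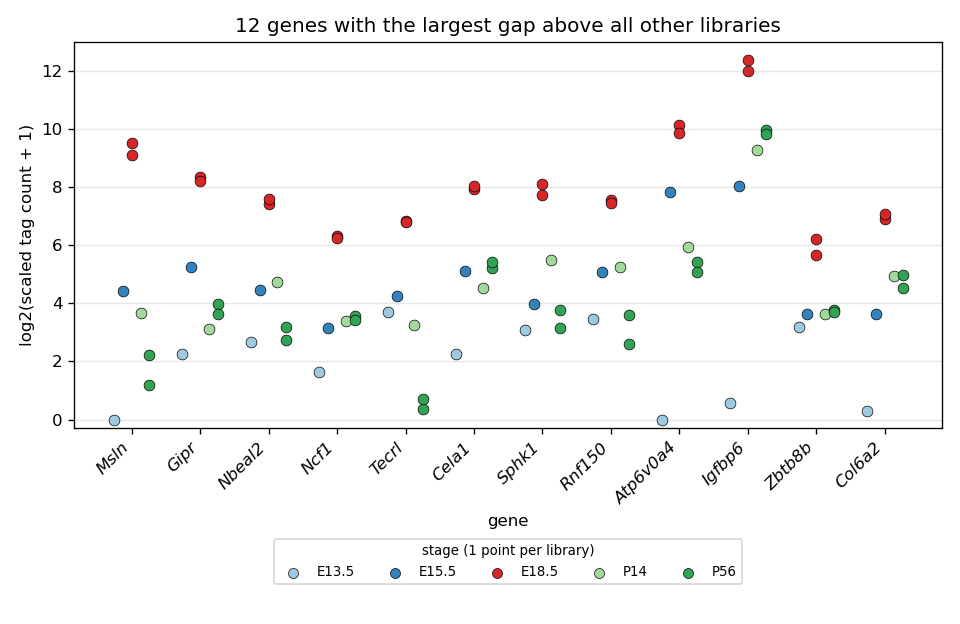
Log2(scaled tag count + 1) of the 12 genes with the largest gap above all other libraries among called genes with an E18.5 mean of at least 50, 1 point per library, coloured by stage, with genes ordered by gap from left to right. For each gene the 2 red E18.5 points lie above all others, with the widest gap at Msln, where E15.5 at 20.5 units is the nearest library.

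Gene lists were laid over this pattern and are given by the number of members in each position beside the shares over all tested genes, 10.2% above and 9.54% below. Counts of members called stand beside 8.47% of all tested genes called higher and 7.40% called lower. Among lists with 10 or more tested members, those of alveolar type 1 markers, basement membrane, cell shape and cell junction genes had the largest shares above, between 43.5% and 50% of tested members. Distal tip progenitor, secretory pathway, respiratory chain and DNA replication genes had the largest shares below, between 28.6% and 38.5%. Some genes are in more than 1 list and count in each, so the lists are not independent. The type 1 list shares Agrn with the basement membrane list, Cav1, Cav2 and Ahnak with the shape list, and Cldn18 with the junction list. Over all tested genes the median difference from the other stages was -0.045 on the log2 scale. In sorted bulk cells a higher share of cells of a type and more RNA of a gene per cell cannot be told apart, and this holds for each list below.

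**Figure D2:**
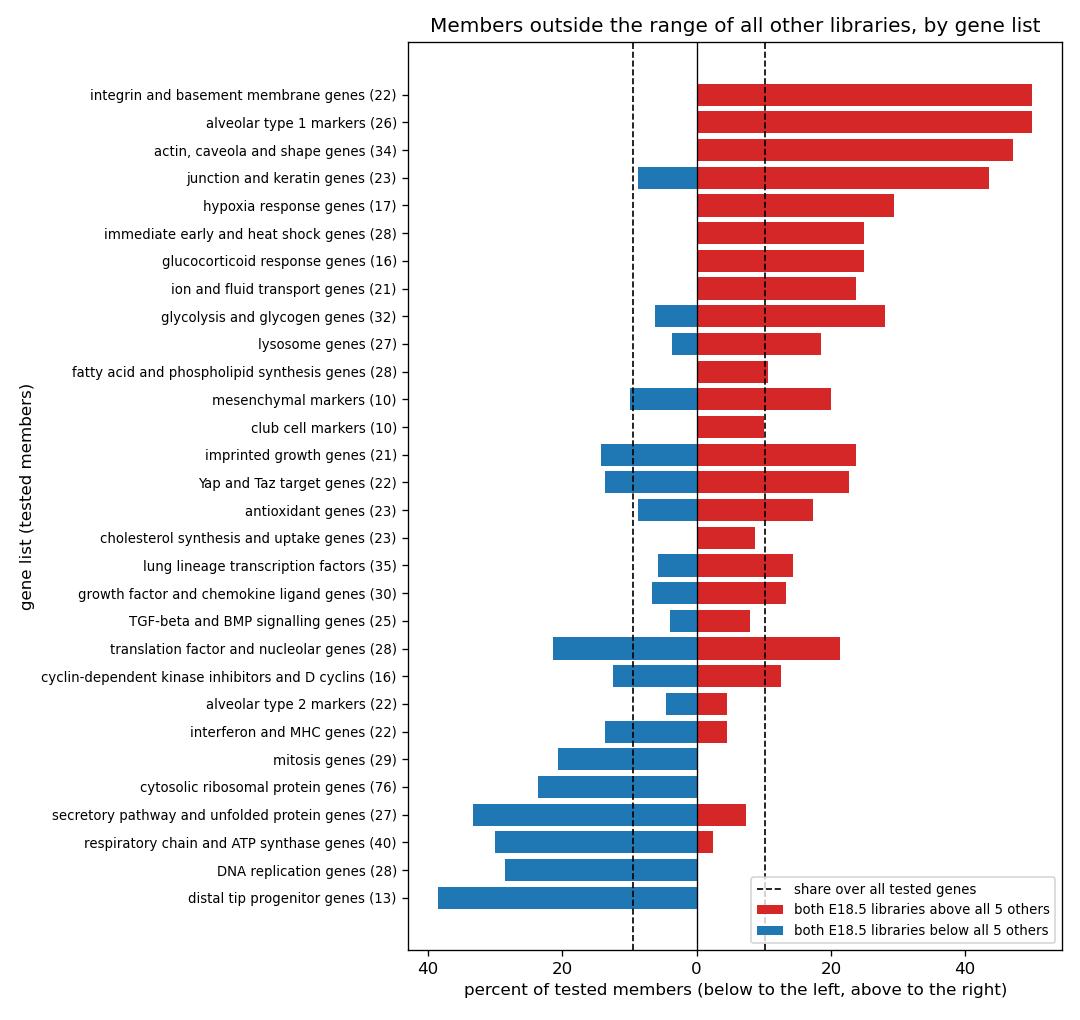
Percent of tested members of each gene list whose 2 E18.5 values lay above all 5 other libraries (red, to the right) or below them (blue, to the left), with the number of tested members in brackets and the shares over all tested genes as dashed lines at 10.2% and 9.54%. Type 1, basement membrane, shape and junction lists reach furthest to the right, and distal tip progenitor genes furthest to the left at 38.5%.

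Alveolar type 1 genes were at their height at E18.5 or near it. Of 26 tested markers, all that were listed, 23 were called higher and 13 lay above all other libraries, none below, with a median difference of 2.63 on the log2 scale. Clic5, of the chloride intracellular channel family and abundant in type 1 cells, was at 0.945 and 333 early, 2745 and 3089 at E18.5, then 1498 at P14, and 227 and 238 at P56 (log2 difference 4.57, SE 0.15, adjusted p = 3.35e-05). Gprc5a, an orphan receptor of lung epithelium, stood at 179 and 439 at the early stages, 2924 and 3697 at E18.5, then 1379 at P14, and 662 and 641 at P56. Lmo7, an adaptor of actin and cell junctions, was at 5.91 and 81.1, then 526 and 543, then 214, 88.5 and 84.9 in the same order. In these genes P14 was the nearest library, 1.95-fold to 2.49-fold under the E18.5 mean, and P56 was far lower.

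In the 13 type 1 markers that were not above, P14 was at or over the lower E18.5 value. Ager, the receptor for advanced glycation end products and a classical type 1 marker, was at 694 and 868 at E18.5 beside 851 at P14, and at 230.5 and 212 at P56. Aqp5, the water channel of type 1 cells, was at 1931 and 2181 at E18.5 beside 3139.5 at P14 and 2545 and 3000.1 at P56. The count above therefore turned on the P14 library: without it 22 of the 26 markers lay above all others. Igfbp2 was the only type 1 marker called lower, at 3.08 and 2.26 beside 31.2 and 23.0 early and 34.7 at P14. It was not below all others, since not every P56 library exceeded the higher E18.5 value.

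Type 2 markers took the other course. Of 22 tested, 16 were called higher than the mean of the other stages, but only Ctsh, a lysosomal protease gene, lay above all others, and Etv5 lay below. The median difference was 4.26 on the log2 scale against the early stages and -1.64 against the postnatal stages, contrasts that share the E18.5 libraries. Sftpc, which encodes surfactant protein C, stood at 29.5 and 1259.8 early, 3953 and 3365 at E18.5, then 15516 at P14, and 19987 and 21448 at P56. Its E18.5 values lay over both early and under all postnatal libraries, as did those of 18 of the 22 markers, Sftpc included. Ctsh was at 911 and 825 at E18.5 beside 639 at P14, 1.36-fold lower, and 526 and 538 at P56. The 16 calls became 7 without the E13.5 library.

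**Figure D3:**
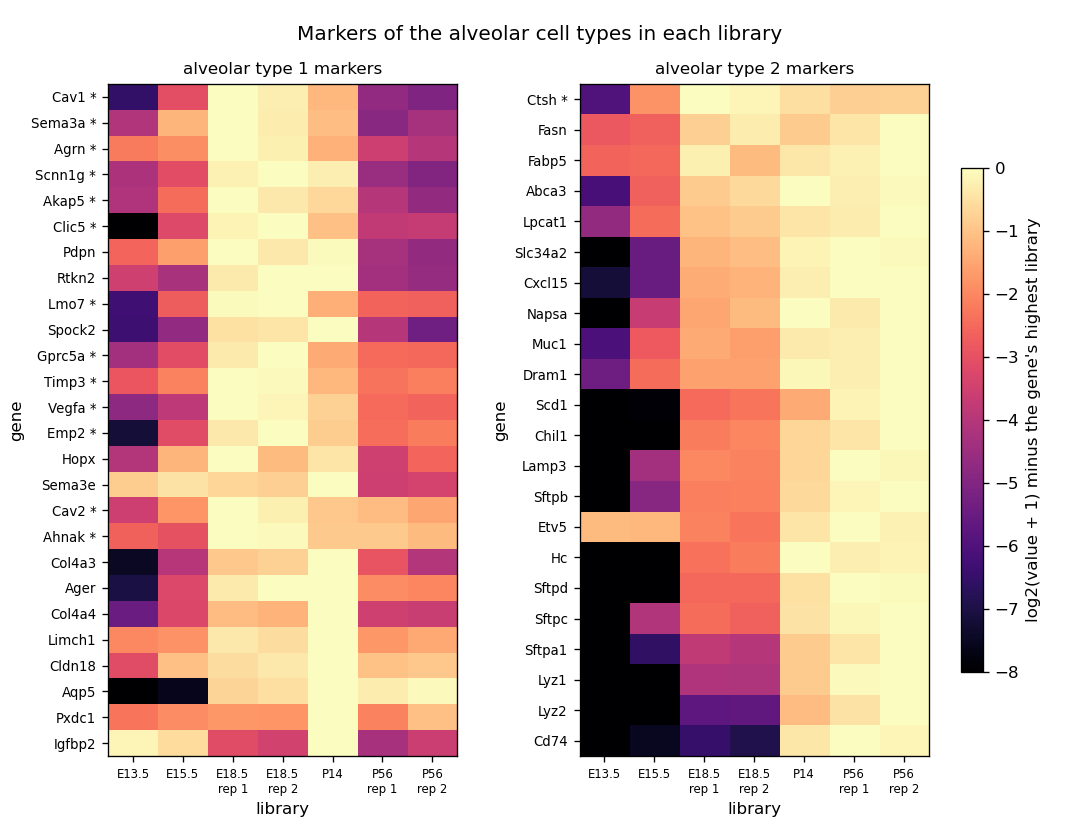
Heat maps of the tested alveolar type 1 markers (left) and type 2 markers (right), genes in rows and the 7 libraries in columns, coloured by log2(value + 1) minus the gene's highest library, with differences of more than 8 below it drawn as 8; an asterisk marks a gene above all others at E18.5. Type 1 markers are mostly highest at E18.5 or P14, and type 2 markers at P14 or P56.

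Genes of the basement membrane and the integrins that bind it were high together. Of 22 tested genes of 24 listed, 16 were called higher and 11 lay above all others, with a median difference of 1.43 on the log2 scale. Lama5, the main alpha chain of fetal lung laminins, was at 631 and 1404 early, 1965 and 2258 at E18.5, then 834 at P14, and 363 and 408 at P56. Agrn, the heparan sulphate proteoglycan agrin, was at 262 and 222 at E18.5, 2.29-fold over P14, and Itga6, an integrin subunit that binds laminin, at 129 and 176 beside 102 at E15.5. Lama3, Lamb2, Lamc1, Col4a1, Hspg2 (perlecan), Itga3 and Itgb6 were also above. Col4a2, Col4a3 and Col4a4, collagen IV chains, were called higher too but had their highest value at P14, and without the P14 library 17 of the 22 genes lay above. Fbln1 was the single member called lower, at 4.24 and 0.754 beside 143 and 85.8 early. It was not below all others, since not every postnatal library exceeded the higher E18.5 value. Markers of mesenchymal cells, which also make matrix, moved in part with these genes. Of 14 listed and 10 tested, Col1a1, Tcf21, Eln and Fn1 were called higher and Vim and Dcn lower, 2 lay above and 1 below, and the median difference was 1.04 on the log2 scale. Pdgfrb and Meox2 were at 0 in both E18.5 libraries, Pdgfra at 0.385 and 0.377, and Tcf21 at 13.5 and 8.67. The part of mesenchymal RNA in the basement membrane values was not tested.

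Genes of cell shape, caveolae and the cortex under the membrane gave 17 calls higher and none lower among 34 tested, and 16 lay above. Caveolae are flask-shaped pits of the membrane that are dense in type 1 cells. Their scaffold gene Cav1 was at 0.945 and 20.8 early, 181 and 149 at E18.5, then 77.9 at P14, and 5.98 and 4.53 at P56. Prkcdbp, also called Cavin-3, was at 774 and 842 at E18.5, 3.24-fold over P14, and Ptrf (Cavin-1) and Cav2 also lay above. Msn, the membrane-actin linker moesin, was at 56.7 and 93.3, then 373 and 463, then 225, 72.8 and 83.9. S100a14, a calcium-binding protein gene, was at 15.8 and 16.2, beside 2.75 or less in each other library. Actb, which encodes beta-actin, was above at 581 and 543 but was not called (log2 difference 0.56, adjusted p = 0.0763), and neither was Actn4.

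Keratins and junction genes followed, with 12 of 23 tested called higher, 10 above and 2 below. Krt19, a keratin of simple epithelia, was at 1392 and 2037 early, 7505 and 8093 at E18.5, then 1087 at P14, and 937 and 841 at P56. Both E18.5 libraries were at least 3.69 times any other library, and the 5 others all lay between 841 and 2037. Krt7 was at 1634 and 3323 early, 11315 and 15794 at E18.5, then 7596 at P14, and 2129 and 1728 at P56, and their partners Krt8 and Krt18 also lay above. The tight junction gene Cldn4 was at 50.1 and 40.2 early, 117 and 164 at E18.5, and 5.23 or less in each postnatal library (log2 difference 3.27, SE 0.26, adjusted p = 0.000511). Esrp1, an epithelial splicing regulator, went the other way at 98.6 and 55.4 beside 148 to 216 in the other libraries. Dsg2, a desmoglein, was below but not called. The calls higher numbered 7 without the E13.5 library.

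Genes of Yap and Taz, transcription co-activators that respond to cell stretch and spreading, and of their targets were mixed. The list counted here holds Yap1, Wwtr1 and Tead1 as well as targets. Of 22 tested, 9 were called higher and 1 lower, and 5 lay above and 3 below. Ctgf was at 206 and 345 early, 793 and 900.5 at E18.5, then 287 at P14, and 45.5 and 42.1 at P56. Wwtr1, which encodes Taz itself, was at 85.1 and 90.4 beside 42.4 at P14, while Yap1 was at 19.6 and 13.2 beside 20.8 to 39.9 in the others and was not called (adjusted p = 0.117). Ankrd1, a gene commonly read as a Yap target, had 0 and 1 read at E18.5 against 55.8 and 3.59 units early, 12.7 at P14, and 1.42 and 1.62 at P56, so that it lay only a few reads under P56.

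An imprinted cluster on chromosome 12 was at its highest at E18.5. Its members are expressed from a single parental copy, Dlk1 from the father's and the non-coding Meg3, Rian and Mirg from the mother's. They lie in the order Dlk1 (109452823 to 109463336), Meg3 (109541001 to 109571726), Rian (109603940 to 109661716) and Mirg (109729764 to 109749460), all on the plus strand of GRCm38. Dlk1, which encodes a Notch-like membrane protein of fetal progenitors, was at 27.2 and 64.6 early, 183 and 165 at E18.5, then 0.550 at P14, and 0 at P56. Meg3 was at 265 and 497 early, 1704 and 1871 at E18.5, 225 at P14 and 25.9 in both P56 libraries (log2 difference 3.41, SE 0.15, adjusted p = 9.44e-05). Rian, at 2851 and 3295 at E18.5, was 2.51-fold over E15.5, and Mirg, at 23.9 and 24.5, was 6.13-fold over E15.5. All 4 thus had E15.5 as the nearest stage, against P14 for the type 1 genes named above.

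Other imprinted growth genes did not share that course. Of 21 tested on the list 7 were called higher and 2 lower, 5 lay above and 3 below. H19, a non-coding RNA of fetal growth, was at 5921 and 9692 early and 397 and 349.6 at E18.5, and its call as higher (log2 difference 1.34) rests on 7.15 units at P14 and 0 at P56. Gnas was the fifth gene above, at 716 and 719.6 beside 546 at E15.5. Slc38a4, an amino acid transporter gene, was below at 4.24 and 4.52 beside 7.43 at P14, as was Impact.

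Genes that respond to glucocorticoid were high in part. Of 16 tested, 8 were called higher and none lower, and 4 lay above. The median difference was 1.77 on the log2 scale against the early stages and -0.40 against the postnatal stages. At E18.5, 7 of the 16 lay over both early and under all postnatal libraries. Zbtb16, a transcription factor strongly induced by glucocorticoid in many tissues, was at 14.9 and 12.6 early, 155 and 127 at E18.5, then 73.7 at P14, and 79.1 and 68.7 at P56. Fkbp5, a chaperone of the receptor, was at 60.5 and 38.8, then 63.5 and 83.3, then 10.2, 12.8 and 10.7, so that its lower E18.5 value was close to the E13.5 value. Fkbp5, Per1 and Dusp1 were above by less than 0.1 on the log2 scale. Nr3c1, the receptor gene, was at 63.9 and 68.9, inside the range of the others, and was not called (adjusted p = 0.194). Calls higher numbered 4 without the E13.5 library.

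Genes of salt and water transport gave 10 calls higher and 1 lower among 21 tested, with 5 above. Aqp1, a water channel, was listed at 0 at E13.5 and both P56 libraries, and was at 7.18 at E15.5, 88.9 and 139.8 at E18.5 and 37.7 at P14. The sodium channel subunit gene Scnn1g was at 4.73 and 11.1 early, 87.4 and 101 at E18.5, then 85.0 at P14, and 3.41 and 2.27 at P56, so that E18.5 and P14 were close and P56 far lower. Nedd4l, a ubiquitin ligase that removes sodium channels from the membrane, was at 254 and 272 at E18.5, 2.72-fold over P14. Ano1, a chloride channel linked to fluid secretion, was at 111 and 76.9, 2.36-fold over P14. The number above was 8 without the P14 library and 9 without replicate 1 of E18.5.

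Genes of low oxygen, sugar and early response were also represented. Of 17 tested hypoxia response genes 6 were called higher and 5 lay above, among them Ndrg1 at 75.1 and 102 beside 32.3 at E15.5 and Vegfa, the vessel growth factor, at 408 and 369 beside 241 at P14. Hif1a, the oxygen-regulated factor itself, was at 90.1 and 70.5 beside 80.0 to 125 in the others and was not called. Of 32 glycolysis and glycogen genes 8 were called higher and 2 lower, with 9 above and 2 below. Among them Pygl, the liver form of glycogen phosphorylase, was at 43.1 and 81.4 beside at most 39.8. Of 28 immediate early and heat shock genes, which also answer to tissue dissociation, 15 were called higher and 7 lay above, and 8 were called without the E13.5 library. Zfp36, a regulator of mRNA decay, was at 4186 and 5343, 1.81-fold over P56. Whether handling of the cells differed between the libraries was not tested.

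Of 35 tested lung transcription factors 11 were called higher and 2 lower, and 5 lay above and 2 below. Cebpb, a C/EBP factor linked to epithelial maturation, was at 53.6 and 404 early, 760.4 and 654 at E18.5, then 285 at P14, and 434 and 368 at P56. Elf5, an Ets factor, was at 350.4 and 348 beside 312 at P14, a gap of 0.16 on the log2 scale. Nkx2-1, Klf5 and Tbx2 were the other 3 above. Sox4 was below and called lower at 14.2 and 23.4 beside 27.3 to 63.3 elsewhere. Only 2 factors were called higher without the E13.5 library.

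On the low side stood genes that copy DNA and drive division. Promoters of 4 such genes are shown because motifs of cell cycle control occur in them. They are the 120 bases before the RefSeq start on GRCm38.p6, with capitals for the CHR letters TTTGAA, the E2F letters TTTGGCGC and the CCAAT box, on either strand, so that ATTGG is a CCAAT box on the opposite strand. They come from Mcm6, a helicase subunit (chr1:128359706-128359825, minus strand), Mki67, the Ki-67 proliferation antigen (chr7:135716380-135716499, minus), Bub1, a kinase of the spindle checkpoint (chr2:127831860-127831979, minus), and Prim1, the primase (chr10:128015095-128015214, plus).
Mcm6: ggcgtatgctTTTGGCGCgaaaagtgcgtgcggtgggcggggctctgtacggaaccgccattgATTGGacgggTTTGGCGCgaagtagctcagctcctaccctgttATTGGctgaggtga
Mki67: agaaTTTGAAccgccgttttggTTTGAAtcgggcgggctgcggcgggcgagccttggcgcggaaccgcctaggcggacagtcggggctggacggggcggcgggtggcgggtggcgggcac
Bub1: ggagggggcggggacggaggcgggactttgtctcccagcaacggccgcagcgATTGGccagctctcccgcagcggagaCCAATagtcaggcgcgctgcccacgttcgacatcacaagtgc
Prim1: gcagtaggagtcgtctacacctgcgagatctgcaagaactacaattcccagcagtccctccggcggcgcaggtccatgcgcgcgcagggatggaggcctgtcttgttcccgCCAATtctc

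These 4 were chosen among genes whose window holds a match; the same windows of Cdc6, Tk1 and Fen1, which had larger gaps, hold none of the motifs. Mcm6 holds 2 E2F matches and 2 CCAAT boxes in this window, Mki67 holds 2 CHR matches, Bub1 2 CCAAT boxes and Prim1 a CCAAT box 9 bases before the start. Over the 300 bases from 250 before to 50 after the start, RefSeq promoters were found for 30 of the 37 DNA replication and mitosis genes called lower. TTTGAA occurred in 42.4% of their 33 promoters, against 12.1% of 11892 promoters of tested genes and 17.9% of all 32851. CCAAT occurred in 75.8% against 37.2% and 37.4%, TTTGGCGC in 15.2% against 0.900% and 0.514%, and TTTCCCGC, another E2F form, in 9.09% against 1.82% and 1.07%. The genes came from lists of replication and mitosis genes, and list members not called were not set beside them. In the 503 promoters of all genes below and called lower, the shares were 13.7% for TTTGAA, 41.4% for CCAAT, 1.79% for TTTGGCGC and 3.58% for TTTCCCGC. These are shares of letter matches, with both strands searched and overlaps between motifs allowed, and not bound sites.

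Genes of DNA replication and mitosis were low at E18.5, mostly as part of a low level that lasted after birth. Of 28 tested replication genes 17 were called lower and none higher, with 8 below all others and a median difference of -1.86 on the log2 scale. Of 29 mitosis genes 20 were called lower and 6 lay below, with a median of -2.04. Against the postnatal stages the medians were -0.33 and -0.084, beside -3.23 and -3.63 against the early stages, contrasts that share the E18.5 libraries. Top2a, the topoisomerase of dividing cells, shows the usual course: 591 and 454 early, 9.24 and 11.3 at E18.5, then 4.68 at P14, and 9.96 and 10.7 at P56. Without the E13.5 library 7 replication and 9 mitosis genes were called lower, and without the E15.5 library 10 mitosis genes.

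A smaller group dipped below the postnatal level as well. Tk1, the thymidine kinase of the S phase, was at 443 and 567 early, 4.62 and 9.42 at E18.5, then 22.0 at P14, and 37.8 and 52.8 at P56. Cdc6, which loads the replicative helicase, had 0 and 1 read at E18.5 against 4.55 and 6.80 units at P56. Its lowest other library, P14, was under both P56 libraries and 6.57 times the higher E18.5 value. Fen1, the flap endonuclease, was at 11.2 and 7.91 against 23.9 to 27.6 after birth. Prim1 was at 418 and 386 early, 10.8 and 10.5 at E18.5, then 12.4 at P14, and 47.8 and 47.0 at P56. Mki67 was at 0.770 and 1.51, a few reads, under each postnatal library, the highest of which was at 3.98 (log2 difference from the postnatal stages -0.77, adjusted p = 0.248).

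Ccnd1, which encodes cyclin D1, the partner of the kinases that start the cell cycle (chromosome 7, 144929931 to 144939925, minus strand), was at 98.5 and 30.5 early, 7.32 and 6.03 at E18.5, then 23.7 at P14, and 58.9 and 74.2 at P56. Its E18.5 mean of 6.67 ± 0.910 (SD, n = 2) was 3.55-fold under P14 (log2 difference from the other stages -2.64, SE 0.23, adjusted p = 0.00066). Ccnd2 was also below, at 42.6 or less beside at least 47.3. In the same list Cdkn2b, an inhibitor of those kinases, lay above at 93.9 and 85.1, beside 60.2 at P14, 6.85 and 13.6 early and 1.14 and 2.91 at P56. Btg2, an antiproliferative gene, lay above too. Of the list's 16 tested members 5 were called higher and 2 lower, and 2 were called higher without the E13.5 library.

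Among called genes with a mean of at least 50 in the other stages, the largest gap below was that of Stmn1, the microtubule-destabilising protein stathmin, at 242 and 132 early, 9.24 and 11.3 at E18.5, then 46.2 at P14, and 46.1 and 48.9 at P56. Every other library was at least 4.08 times the higher E18.5 value. Igsf8, an immunoglobulin family membrane protein, was at 16.9 and 13.6 beside 62.2 to 105 in the others, and Fam111a, a protease linked to replication, at 11.9 and 9.04 beside 43.7 to 85.4. Pdlim1, a linker of actin fibres, was at 129 and 135 beside 371 to 877. Pf4, a chemokine best known from platelets, was at 13.1 and 9.42 beside 36.0 to 132 in the others. Tceb1 (elongin C) and Pea15a, a regulator of ERK signalling, were also among them, 3.36-fold and 2.75-fold under the nearest stage.

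**Figure D4:**
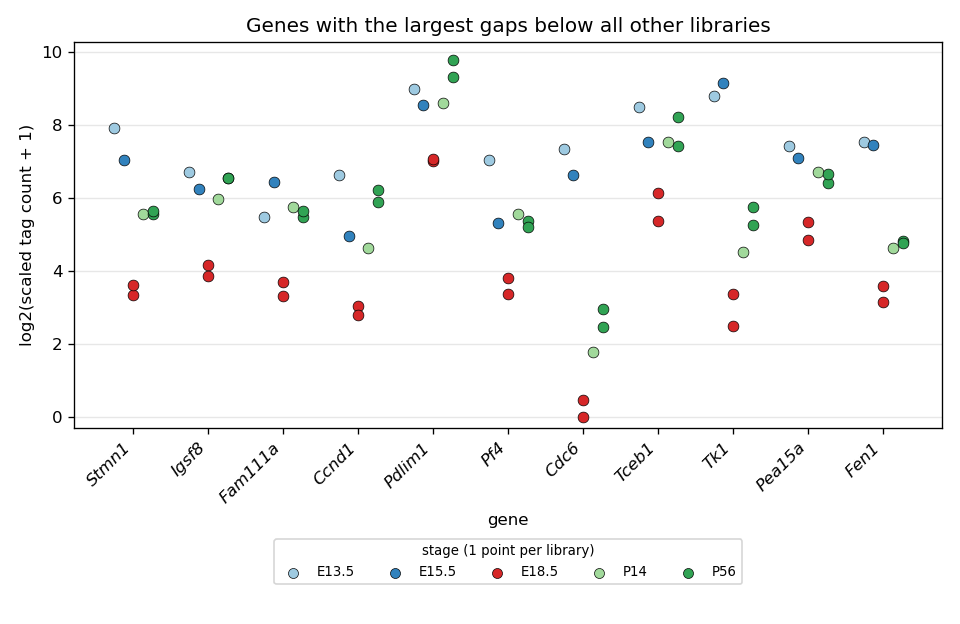
Log2(scaled tag count + 1) of genes with the largest gaps below all other libraries, among called genes with a mean of at least 50 in the other stages, 1 point per library, coloured by stage, with genes ordered by gap from left to right. The red E18.5 points are the lowest for each gene, and for Cdc6 they lie at or near 0 because it had 0 and 1 read.

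Genes of the distal tip progenitors split in their course. Of 13 tested, 5 lay below and were called lower and none was called higher, with a median difference of -0.84 on the log2 scale. Etv5, an Ets factor induced by FGF signalling and later expressed by type 2 cells, was at 143 and 139 early, 75.8 and 64.0 at E18.5, then 237 at P14, and 320.4 and 277 at P56. Clu, the secreted chaperone clusterin, was at 117 and 184, then 23.9 and 27.5, then 40.2, 165 and 179. Spry2, a feedback inhibitor of FGF signalling, was at 21.9 and 23.4 beside at least 29.3, and Id2 and Tcf7l1 completed the 5. Each dipped at E18.5 between higher values on both sides. Sox9, the tip factor, was not among them, at 40.8 and 59.9 between 112 and 137 early and 1.71 and 0.972 at P56.

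Many genes of protein making and export were low too, but here the E18.5 libraries differed. Of 27 tested secretory pathway and unfolded protein genes 9 were called lower and none higher, with 9 below and 2 above. Hsp90b1, a chaperone of the endoplasmic reticulum, was at 874 and 484 early, 230.2 and 149 at E18.5, then 440.2 at P14, and 524 and 693 at P56. Hspa5, the main chaperone BiP, was at 977 and 445 at E18.5 beside 1367 or more elsewhere, and Pdia6, a disulphide isomerase, at 1060.3 and 1061 beside at least 1489.8. Replicate 2 was the lower of the pair for 21 of the 27 genes. In the fit without E13.5 the calls lower numbered 5.

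Of 76 tested ribosomal protein genes 18 lay below and 7 were called lower (9.21%, near the 7.40% of all tested genes), with a median difference of -0.57 on the log2 scale. Their summed level was 163981 and 146243 units early, 113434 and 97699 at E18.5, then 88382 at P14, and 77248 and 83622 at P56, so that the sum was higher at E18.5 than after birth while the median member was lower. Rplp1, of the ribosomal stalk, was at 101 and 46.7 beside 170.3 to 313 in the others. Reads of ribosomal protein genes can be shared with processed pseudogenes, so single members are uncertain. Replicate 2 was lower than replicate 1 for 69 of the 76, with a median of -0.85 on the log2 scale. The number below was 55 with replicate 2 alone and 18 with replicate 1 alone, and the calls were 2 without the E13.5 library, 13 without P14 and 0 without the filter on low reads. Of 40 respiratory chain and ATP synthase genes 12 lay below, 1 above and 6 were called lower, among them Ndufa2 of complex I at 472 or less beside 778 or more elsewhere. Here 29 genes were lower in replicate 2, and 20 lay below with it alone against 16 with replicate 1 alone.

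The ribosomal and respiratory lists hold many short transcripts. By the longest annotated transcript, 44.7% of the tested ribosomal protein genes and 37.5% of the respiratory chain genes were under 1000 bases, against 7.41% of the secretory pathway genes. Of 12964 tested genes 90.1% had a longest annotated transcript in GENCODE vM21, with a median of 3403 bases, against 3509 for genes above and called and 3139 for genes below and called. Transcripts under 1000 bases made up 11.1% of those below, 2.75% of those above and 5.37% of all. The 627 short genes had a median difference between E18.5 replicate 2 and replicate 1 of -0.36 on the log2 scale, against 0.0034 for longer genes. Their median difference between E18.5 and the other stages was -0.45, against -0.039 for longer genes, and 9.57% of them lay below and were called lower, against 4.36%. The part of transcript length and of this difference between the E18.5 libraries in the low ribosomal, respiratory and secretory values was not tested.

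Nucleolar and translation genes went both ways. Of 28 tested 9 were called lower and 3 higher, with 6 below and 6 above. Nop56 and Ncl, which act in ribosome assembly in the nucleolus, were below: Nop56 at 167 and 146 beside 238 or more, and Ncl at 112 and 87.4 beside at least 149. Eif3f, a subunit of an initiation factor, was above at 4965 and 6631 beside at most 3679.6. In the fit without E13.5 the calls lower numbered 5 here too.

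The library that came closest to E18.5 differed between genes. Among the 688 genes above and called, P14 was nearest for 275 (40%), E15.5 for 165 (24%), the P56 libraries for 110 and 100, and E13.5 for 38. Among the 583 below and called, P14 was nearest for 163 (28%), the P56 libraries for 145 and 108, E15.5 for 122 and E13.5 for 45. In both sets E13.5 was least often the nearest. By stage, P56 with its 2 libraries was nearest for 210 of the genes above and for 253 of the genes below, more than any other stage for the latter; a stage with 2 libraries has 2 chances to be nearest.

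**Figure D5:**
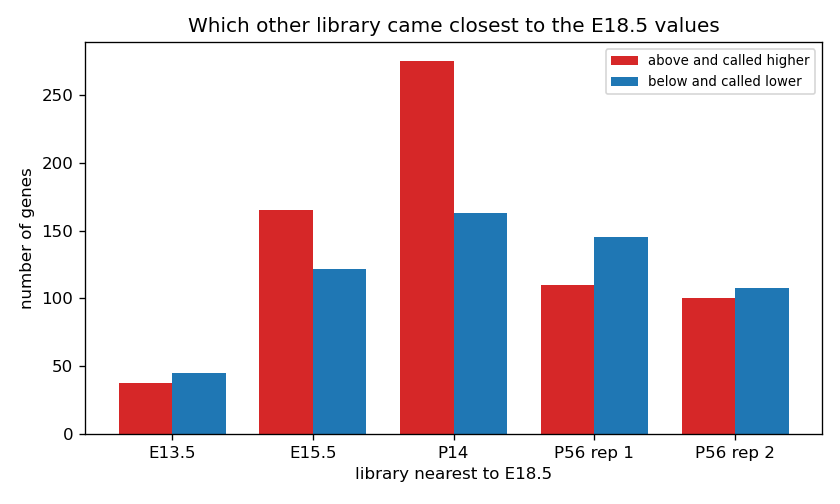
Number of genes (vertical axis) for which each of the 5 other libraries (horizontal axis) came nearest to the E18.5 values, for genes above and called higher (red) and below and called lower (blue). P14 has the tallest bar in both sets, at 275 and 163 genes, and E13.5 the shortest, at 38 and 45.

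The stages before and after E18.5 were also taken apart, in 2 contrasts that share the E18.5 libraries. Against the mean of E13.5 and E15.5, 2043 genes were called higher (15.8%) and 1736 lower (13.4%). Against the mean of P14 and P56, 628 were called higher (4.84%) and 953 lower (7.35%). The balance depended on the test: edgeR called 934 higher and 917 lower against the postnatal stages, and limma without the filter 1352 higher and 2267 lower against the early stages. The median difference of the 688 genes above and called was 1.82 on the log2 scale against the early stages and 1.22 against the postnatal stages. For the 583 below and called the values were -1.59 and -1.15. Examples on either side are Cldn4, at 1.61 against the early and 4.93 against the postnatal stages, and Igfbp6, at 7.88 and 2.59.

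These calls lean on the 2 replicate pairs and on a coefficient for each stage. With the 5 other libraries pooled into a single group limma called 0 genes (at an unadjusted p under 0.05, 726 in the higher and 733 in the lower direction), and it called 0 without any single replicate of E18.5 or P56, which leaves 1 residual degree of freedom; at an unadjusted p under 0.05 those fits gave 1420 to 1698 higher and 1158 to 1796 lower, and edgeR, with the same libraries left out, called 1367 to 1824 higher. The named genes with the largest gaps in each direction kept their direction in every fit that was run, and stayed outside the other libraries under both other scalings. They were picked for these gaps, so this is no independent support. Their position with no filter or with a library left out was fixed in advance, since neither change can narrow a gap.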

How the data were processed

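Each library's deposited file gave 1 value per gene, a signal that the authors had scaled by library. The mouse build mm10, the aligner Bowtie2 (2.2.5) and the software R (3.4.0) are named per the submitters' processing notes; the tag counter, annotation and scaling are not given in the sources used here. Dividing each library by the value of 1 read gave whole numbers within 0.01 reads for all genes, and these recovered reads set the filter (edgeR's filterByExpr, by stage).

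Log2(value + 1) was fitted with a mean for each stage in limma 3.58.1 (R 4.3.3, trend and robust options, 2 residual degrees of freedom), and E18.5 was set against the equally weighted mean of the 4 other stages, of the 2 early or of the 2 postnatal stages. All adjusted p-values in the report are two-sided and from limma with Benjamini-Hochberg adjustment over all 12964 tested genes, and a call needs a value under 0.05. Alternatives used edgeR 4.0.16 (quasi-likelihood) and DESeq2 1.42.0 on recovered reads, other scalings, pseudocounts and filters, and left-out libraries. The scripts were tested on simulated data. Figures were drawn with Python 3.11.15 and matplotlib 3.10.9.

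The comparison, its members and the 37 lists (905 entries, with some genes in several lists) were chosen with earlier results of these data known. Genes were named by rule: the 12 called genes with the largest gaps in each direction with a mean of at least 50 on the higher side, without clone or predicted symbols, and up to 4 members of each list above or below with the largest gaps. Other genes were chosen after their values were seen, and a few that the rule selects are not reported here. Tags count transcripts at the 3' end, so levels were compared within genes only. Reads may be shared between near-identical genes, among them ribosomal protein genes and the pairs Scd1 and Scd2 or Ifitm1, Ifitm2 and Ifitm3. The 2 stages with replicates have the same replicate numbers, but the labels do not say that a number marks a shared litter or day.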

Additional observations from a re-analysis of the deposited data

How the results depend on the processing

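None of the 129 genes picked by the naming rule, called named genes here, reversed direction under the alternatives run. The rule had picked these genes for lying outside the other libraries. Genes in the text that the rule did not pick, such as Clic5, Sftpc and Top2a, were not checked in this way. The balance of calls did turn. Calls higher and lower against the other stages numbered 721 and 1455 without the low-value filter, 334 and 148 with a replicate block, and 0 and 0 with the other libraries pooled, where the spread between stages counts as error. Without robust variance estimates 573 genes were lower, and 509 with DESeq2's Wald test. Leaving out 1 library gave 0 to 1464 higher and 0 to 1256 lower, with 591 and 544 without E13.5 replicate 1 and 0 without a replicate of E18.5 or P56; with edgeR (added after seeing the data) 935 to 1875 and 499 to 1158, among them 1824 higher without E18.5 replicate 1 and 634 lower without P56 replicate 1. The share of calls in the higher direction was 33.1% with no filter, 63.2% with DESeq2 and 69.3% with the block, against 53.4% in the reported fit. Against the early stages calls numbered 1352 higher and 2267 lower with no filter, 991 lower with DESeq2, 1121 and 772 with the block, and 0 to 2099 and 0 to 1745 with 1 library left out. Against the postnatal stages they numbered 934 and 917 with edgeR (50.5% higher against 39.7% in the reported fit), 314 and 616 with no filter, 322 and 438 without robust estimates, 542 lower with DESeq2, 209 and 273 with the block, and 0 to 801 and 0 to 1026 with 1 library left out. Genes above and below all others numbered 419 and 312 at a gap of at least 0.5, 137 and 72 at a gap of at least 1, 829 and 738 at a mean of at least 10, and 1474 to 2529 and 1437 to 2472 with 1 library left out (1504 and 1544 without E13.5), since fewer libraries leave fewer values to exceed. Of 129 named genes, 121 were called in the reported fit. The call was lost by 51 with the block, 44 with no filter, 24 without robust estimates, 14 without E13.5 and 3 with edgeR. Without a replicate of E18.5 or P56 no named gene kept its call. Per-list counts of calls moved by over 1.5 times in 22 cases without the filter, 27 with the block, 19 without E13.5, 9 without robust estimates, 6 with DESeq2 and 5 with edgeR. Without the filter, and with the block, 0 ribosomal and 0 respiratory chain genes were called lower, and 0 secretory pathway genes with the block. Over tested genes, the differences between replicates 1 and 2 at E18.5 and at P56 had a correlation of 0.0098. Whether same-numbered libraries share a litter or day was not tested. Apart from the left-out libraries and the pooled fit, the cause of each change was not tested. A depth of 2617913 and 2808678 reads leaves genes near 0 at E18.5, such as Cdc6, resolved only to a few reads.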

Other observations

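Lists not described above gave weaker or mixed patterns at E18.5, and many of their counts turned on 1 library. Of 28 tested fatty acid and phospholipid synthesis genes 11 were called higher (4 without E13.5) and 2 lower, and 3 lay above all other libraries, 10.7% beside 10.2% of all tested genes. Among them Scd2, a stearoyl-CoA desaturase, was at 8787 and 9545 at E18.5 beside 4834 at P14, the nearest library. Of 23 cholesterol genes 5 were called higher (3 without E15.5) and 2 lay above, 8.7% and so under the share of all tested genes. Of 27 lysosome genes 6 were called higher (3 without E13.5, 11 without P14) and 5 lay above. Their median difference was 1.08 on the log2 scale against the early and -0.33 against the postnatal stages, and 12 of the 27 were intermediate in the same way. Lipa, the lysosomal acid lipase that frees cholesterol, was at 100.5 and 132 beside 49.0 or less elsewhere.

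Of 22 tested interferon and antigen presentation genes 8 were called lower and 1 higher, with 3 below all others. The list was low beside the postnatal stages and not beside the early ones, with median differences of -1.43 and 0.46 on the log2 scale, and 8 of the 22 lay over both early and under all postnatal libraries; edgeR called 5 lower. Ifitm1, an antiviral membrane protein gene, was at 220.2 and 139 beside 341 or more elsewhere. Irf7, a transcription factor of the interferon response, was the member above, at 7.32 and 7.54 beside 1.94 or less. Of 25 TGF-beta and BMP signalling genes 3 were called higher (12%) and 1 lower (4%), beside 8.47% and 7.40% of all tested genes. Ltbp4, which anchors latent TGF-beta in the matrix, was above at 61.2 and 59.9 beside 24.0 at E15.5. Of 30 growth factor and chemokine genes 7 were called higher and 3 lower. There 4 lay above (13.3%) and 2 below (6.67%), beside 10.2% and 9.54% of all tested genes. Wnt7a was above at 7.70 and 9.42 beside 4.13 at P14, and Csf1, the macrophage growth factor, was below at 2.69 and 3.77 beside 5.38 or more. Of 23 antioxidant genes 3 were called higher (8 without P14) and 1, Txn1, was called lower. Among airway markers, 5 of 10 club cell genes (3 without E13.5) and 1 of 9 ciliated cell genes (0 without E13.5, 2 without P14) were called higher.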
